A study of Mus musculus with 5 samples.

Results

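Tumours speak to macrophages through a small set of growth factors and surface proteins, and 10 genes of this kind were followed here across the cells of mouse synovial sarcoma (SyS). They are the growth factors Csf1 and Il34 with their shared receptor Csf1r, the "don't-eat-me" proteins Cd47 and Cd24a with the Cd47 receptor Sirpa, the PD-1 ligands Cd274 (PD-L1) and Pdcd1lg2 (PD-L2) with their receptor Pdcd1 (PD-1), and the B7 family protein Cd276. The genes were chosen by symbol for these roles, and all 10 were found among the 32286 features of the deposited matrices. The samples were 5 limb tumours of hSS2 mice, in which TATCre protein injected at 8 days of life switches on human SS18::SSX2 from the Rosa26 locus. The tumours were taken at morbidity and dissociated, red blood cells were lysed, and single-cell 3′ RNA libraries were made. The labels name 2 tumours BP (biphasic) and 1 each MP (monophasic), MP+BP and PD+MP (poorly differentiated with monophasic). All 5 carry the same allele, and no untreated or normal tissue was among them. Both BP tumours share a leading number in their labels, and whether they came from 1 animal was not stated, so the spread between them may be less than that between animals.

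Macrophages depend on signalling through the CSF-1 receptor, a kinase with 2 ligands that are made by different cells. Phagocytosis is held back when SIRPα on a macrophage meets CD47 on another cell, and CD24 acts in a like way through a Siglec receptor. PD-1 on an activated T cell dampens the cell when it meets either of its ligands, which interferon induces on many cell types. The receptor of CD276 is not settled.

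Of 51670 cells, 39559 were kept, with a median of 6339.5 to 8535.5 UMIs (counted RNA molecules) per cell by tumour, and 128 of their barcodes occurred in more than 1 library. The 10 genes took no part in the clustering, and clusters were named from other marker genes. SyS-like cells numbered 27684, macrophage-like 3078, endothelial-like 2428, stromal 1400 (1250 pericyte-like and 150 fibroblast-like), T/NK-like 326, dendritic-like 266, mast-like 231 and neutrophil-like 171, and 3975 cells stayed unnamed. Most unnamed cells were in clusters of 1342, 1316 and 386 cells that each carried 7 of the 12 SyS markers. The UMI shares given below for SyS-like cells leave them out. A class's share of a gene's UMIs grows with its cell number and depth. SyS-like cells were 70.0% of kept cells and the deepest class, with a median of 9320.5 UMIs. The gene shares were not set against each class's share of all UMIs, so they do not show enrichment. The unnamed cells also include clusters of 639 and 157 cells that carried 9 and 10 of the 10 macrophage markers. Both had a monocyte marker and no macrophage marker among their leading genes, and 401 and 79 of their cells came from PD+MP. EGFP stood at 34.8 ± 5.01 CPM (UMIs per 1000000 UMIs of a class in a tumour; SD, n = 5) in SyS-like cells and at 1.60 ± 0.77 in macrophage-like and 0.96 ± 0.72 in endothelial-like cells. It stood at 16.3 ± 8.14 (n = 3) in neutrophil-like cells, whose sums also held the 12 SyS markers at 998 to 3377 CPM against 3064 to 4310 in SyS-like cells. Neutrophil-like values below are therefore read beside that figure, and the part of SyS RNA in them was not tested. Of the fibroblast-like cells, 123 came from PD+MP. Levels are given for classes with at least 20 cells. Each molecule is counted at its 3′ end, so a level does not grow with gene length. Whether levels of different genes can be compared in other respects was not tested.

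Csf1r was concentrated in macrophages, while its ligands were higher in other classes. Csf1r, which marks and sustains macrophages, was read at 387, 504, 393, 379 and 495 CPM in the macrophage-like cells of BP replicate 1, BP replicate 2, MP, MP+BP and PD+MP, the order kept for 5 values below. In SyS-like cells the levels were 4.27, 3.90, 6.11, 6.19 and 1.85 CPM in the same order. Every macrophage-like value lay above every SyS-like value. The log2 difference was 7.23 ± 0.34 (SE; edgeR quasi-likelihood test with tumours as blocks, adjusted p = 1.4e-08). Macrophage-like cells held 68.6% of all Csf1r UMIs, and unnamed cells, among them the clusters with macrophage markers, held 14.8%. After each cell was thinned to 3000 UMIs, which left out 466 shallower macrophage-like and 824 endothelial-like cells, 70.9% of macrophage-like cells and 0.87% of endothelial-like cells had a Csf1r UMI. Before thinning the shares were 82.6% and 2.47%, at median depths of 5291 and 4605.5 UMIs.

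Below the macrophages came dendritic-like cells, with Csf1r at 81.7, 69.2, 33.9 and 24.0 CPM in the 4 tumours other than BP replicate 2. They were lower than macrophage-like cells by 2.92 ± 0.30 on the log2 scale (edgeR, adjusted p = 2.4e-05) and higher than stromal cells by 2.25 ± 0.32 (adjusted p = 0.00031). Neutrophil-like cells, at 17.0 to 39.0 CPM, did not separate from stromal cells (adjusted p = 0.19). Stromal cells stood at up to 19.6 CPM (mean 14.0 ± 4.60), above SyS-like cells in 5 of 5 tumours (1.92 ± 0.27, adjusted p = 0.0012). Endothelial-like and SyS-like cells could not be ordered (0.00 ± 0.39, adjusted p = 1). The low Csf1r level in SyS-like cells was 1.10% of the macrophage-like level (median over tumours, 0.37% to 1.63%). The macrophage markers Ms4a7, C1qc, Adgre1, C1qa and C1qb sat lower there, between 0.10% for Ms4a7 and 0.12% for C1qb. The shares of the other macrophage markers were not computed 1 by 1. All 10 summed to 254 to 870 CPM in SyS-like and 38373 to 55402 CPM in macrophage-like cells. What part of SyS-like Csf1r is macrophage RNA was not tested.

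**Figure D1:**
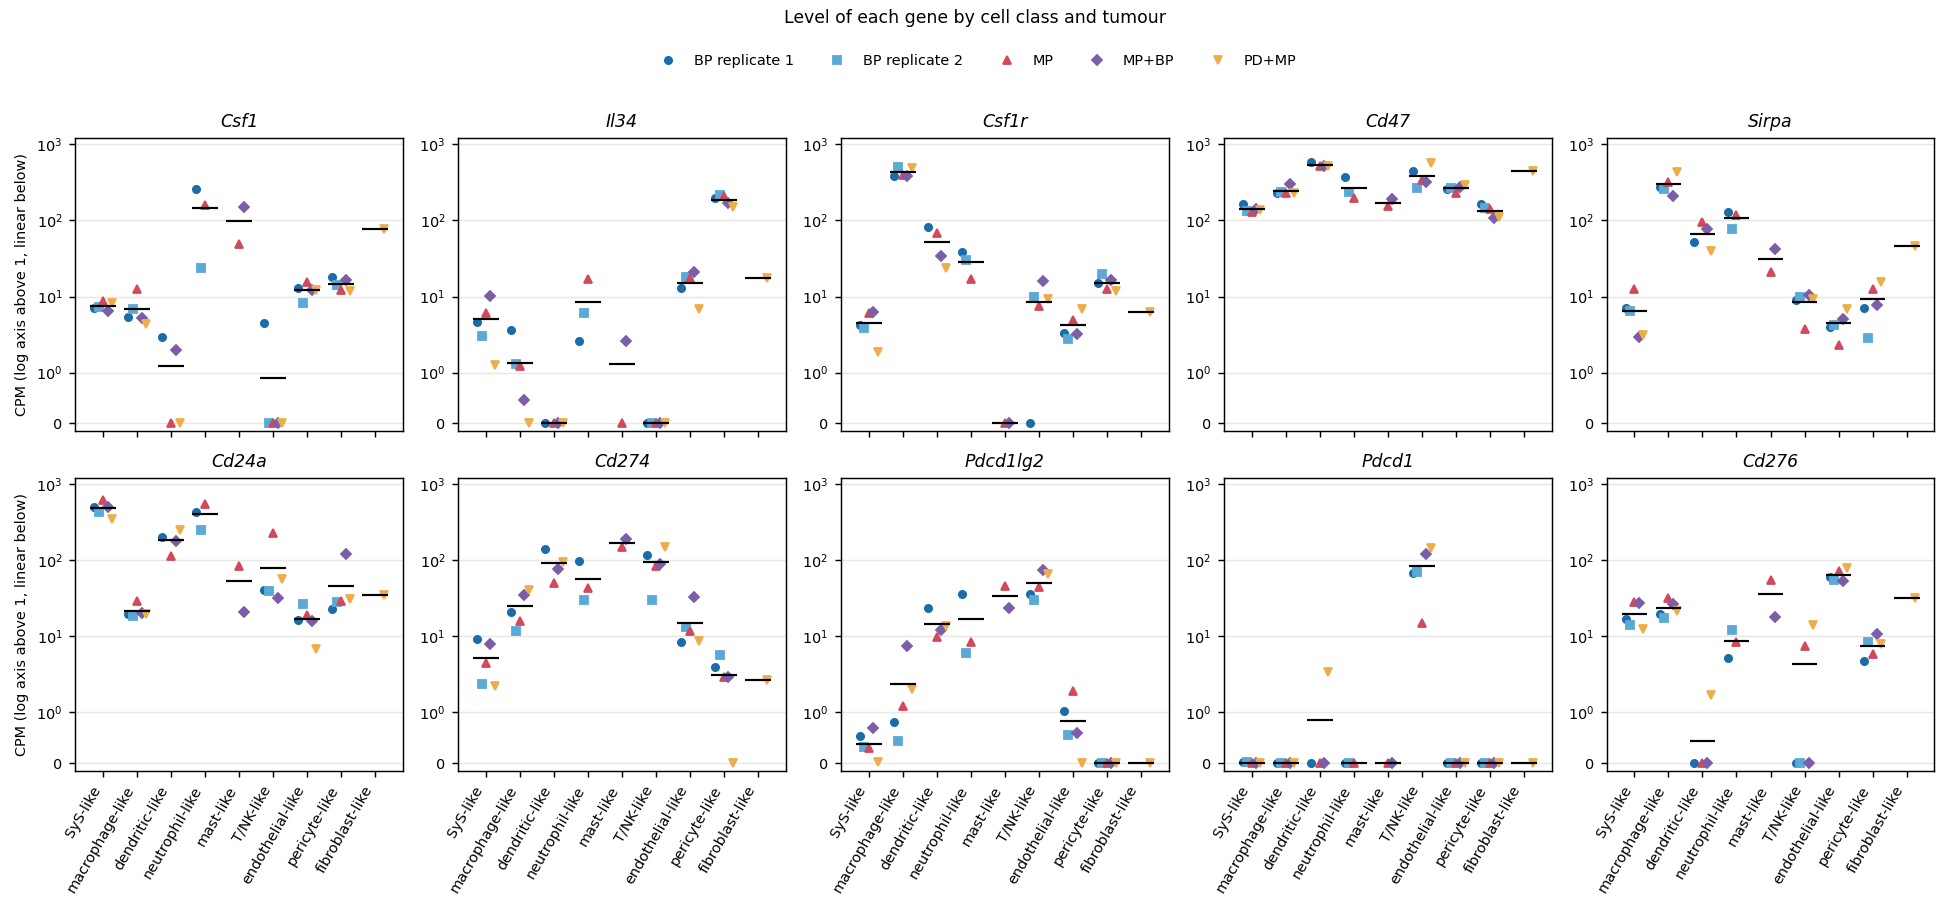
Level of each gene (CPM, log axis above 1 and linear below) in each cell class; each point is a tumour with at least 20 cells of that class, and each black line is the mean over tumours. Csf1r and Sirpa peak in macrophage-like cells, Il34 in pericyte-like cells, Cd24a in SyS-like cells, Pdcd1 in T/NK-like cells and Cd276 in endothelial-like cells.

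Il34, the CSF-1 receptor ligand best known from skin and brain, was highest in pericyte-like cells, the contractile cells that wrap small vessels. It was read there at 195, 213, 206, 170 and 149 CPM. In SyS-like cells the levels were 4.64, 3.01, 6.15, 10.1 and 1.24 CPM, so the 2 classes did not overlap. Stromal minus SyS-like gave a log2 difference of 5.33 ± 0.31 (edgeR, adjusted p = 1.3e-05), and 5.69 with pericyte-like cells alone (adjusted p = 1.9e-07). Of pericyte-like cells 51.8% had an Il34 UMI, against 0.88% of macrophage-like cells, which were deeper (median 5291 against 4032 UMIs).

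Endothelial-like cells held Il34 at 6.86 to 20.9 CPM, above SyS-like cells in 5 of 5 tumours (1.98 ± 0.26, adjusted p = 0.00018) and below stromal cells in 5 of 5 (log2 difference from stromal −3.41 ± 0.19, adjusted p = 4.3e-06, edgeR). Their Il34 level was 8.53% of the stromal level, and pericyte markers stood at like shares in the same sums: Rgs5 at 8.34%, Kcnj8 at 7.76%, Abcc9 at 10.9% and Higd1b at 5.83%. Whether pericyte RNA accounts for the endothelial value was not tested. In SyS-like cells Il34 was at 2.98% of the stromal level, while Rgs5 was at 0.059% and Kcnj8 at 0.66%. T/NK-like and dendritic-like cells held 0 Il34 UMIs in every tumour with a sum. A floor of 3 UMIs over each class puts stromal cells at least 53.9-fold above T/NK-like cells and at least 98.8-fold above dendritic-like cells. In macrophage-like cells Il34 was at 0 to 3.62 CPM, and the difference from SyS-like cells did not pass (−1.22 ± 0.51, adjusted p = 0.057); 8 of 17 alternative settings did pass.

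Csf1, the main growth factor of macrophages, was spread more widely. SyS-like cells held it at 6.97, 7.24, 8.62, 6.48 and 8.19 CPM. Macrophage-like cells held 5.43, 6.94, 12.5, 5.15 and 4.35 CPM, and the groups overlapped. The difference between these classes did not pass (0.35 ± 0.25, edgeR adjusted p = 0.24), and its sign turned without TMM scaling (−0.19). TMM scaling moved all differences of this pair by about 0.55 on the log2 scale. The SyS-like mean was 7.50 ± 0.88 CPM (SD, n = 5).

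Other classes held more Csf1 per UMI. Endothelial-like cells were above SyS-like cells in 5 of 5 tumours, at 8.10 to 15.6 CPM (0.96 ± 0.22, adjusted p = 0.0049), and stromal cells also in 5 of 5, at up to 65.6 CPM (2.02 ± 0.38, adjusted p = 0.0051, edgeR). The stromal value split by cell type. Pericyte-like cells stood at 11.8 to 18.3 CPM and fibroblast-like cells of PD+MP at 77.7 CPM, and with pericyte-like cells alone the difference was 1.23 (adjusted p = 0.0036). Neutrophil-like cells reached 255 CPM in BP replicate 1, 24.0 in BP replicate 2 and 162 in MP, above SyS-like cells in 3 of 3 (4.24 ± 0.41, adjusted p = 2.1e-23), and the lowest of these rested on 4 UMIs. SyS-like cells, the most numerous and deepest class, still held 74.1% of all Csf1 UMIs and 49.7% of all Il34 UMIs, against 34.1% of Il34 in stromal cells. Few SyS-like cells were read with both: of the thinned cells, 0 to 3 per tumour held a UMI of each, or at most 0.067% of cells, where independent detection gives 0.0064% to 0.045%.

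**Figure D2:**
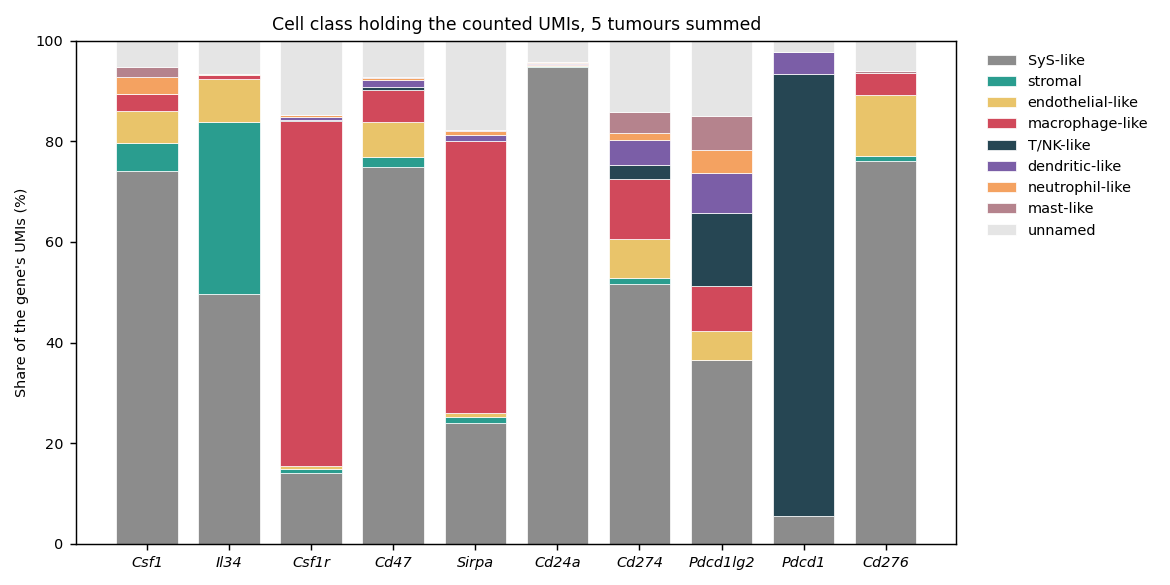
Share of each gene's UMIs (%) held by each cell class, with the kept cells of the 5 tumours summed; colours mark the classes. SyS-like cells, 70.0% of kept cells and the deepest class, hold 94.8% of Cd24a and 74.1% of Csf1 UMIs. Macrophage-like cells hold 68.6% of Csf1r and 54.1% of Sirpa, and T/NK-like cells hold 87.9% of Pdcd1.

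Of the 9 members tested between macrophage-like and SyS-like cells, 7 passed, 6 higher and 1 lower in macrophages. The background is high, since 60.6% of the tested genes that took no part in the clustering passed between these classes, 21.9% higher and 38.7% lower. Between endothelial-like and SyS-like cells 7 of 9 passed against 50.3% of such genes, with 6 higher (19.5%) and 1 lower (30.8%). Between stromal and SyS-like cells 4 of 8 passed against 24.9%, with 3 higher (8.87%) and 1 lower (16.1%). For T/NK-like cells 7 of 10 passed (30.8% of such genes), 4 higher (9.28%) and 3 lower (21.5%). For dendritic-like cells 8 of 9 passed (36.4%), 5 higher (10.9%) and 3 lower (25.5%), and for neutrophil-like cells 6 of 9 (5.63%), 6 higher (3.31%) and 0 lower (2.32%). With SyS-like sums thinned to the depth of the other class, 2 members were called in T/NK-like, 2 in neutrophil-like and 5 in dendritic-like cells, and without BP replicate 1 the neutrophil-like calls were 3. A gene that passed the filter on low counts only through the class where it is high had to differ, so the counts describe and support nothing further. Of the 10 members tested in T/NK-like cells, 2 (Pdcd1 and Pdcd1lg2) passed that filter only through T/NK-like sums and 4 only through SyS-like sums. Entry only through SyS-like sums also held for 3 of the 9 members tested in dendritic-like cells and 1 of the 9 in macrophage-like cells. Pdcd1lg2 also entered only through the other class for macrophage-like, neutrophil-like and dendritic-like cells, and its differences from SyS-like cells there are given below as levels with no test.

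**Figure D3:**
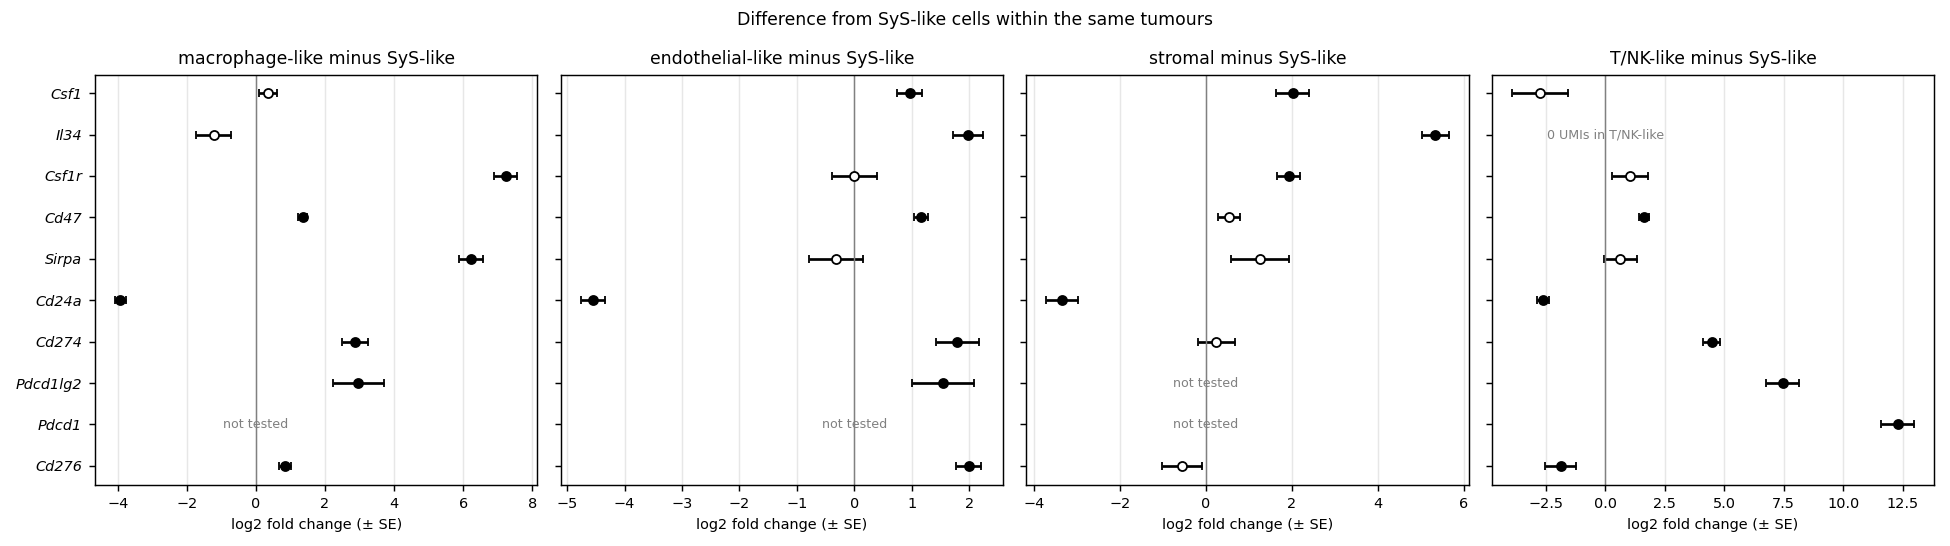
Log2 fold change of each gene between a class and the SyS-like cells of the same tumours, with its standard error (5 tumours in each panel); filled points passed at an adjusted p under 0.05 and open points did not, and Pdcd1lg2 in the macrophage-like and T/NK-like panels and Pdcd1 in the latter entered the fit only through that class. Entry only through SyS-like sums held for 1 gene of the macrophage-like fit and for 4 of the T/NK-like fit, Cd276 among them. Cd24a lies below 0 in all 4 panels, and Csf1r and Sirpa lie furthest above 0 in the macrophage-like panel.

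Among the don't-eat-me genes, Sirpa was highest in macrophage-like cells and Cd24a in SyS-like cells. Cd47 was lower per UMI in SyS-like than in macrophage-like cells. Sirpa, the inhibitory receptor, was read at 277, 257, 321, 207 and 432 CPM in macrophage-like cells. In SyS-like cells it was at 7.12, 6.37, 12.5, 2.97 and 3.16 CPM. The groups did not overlap, and the log2 difference was 6.23 ± 0.35 (edgeR, adjusted p = 5.4e-08). Unnamed cells held 17.6% of all Sirpa UMIs, against 54.1% in macrophage-like cells. Neutrophil-like cells, at 78.1 to 127 CPM, were below macrophage-like cells in 3 of 3 tumours (macrophage-like minus neutrophil-like 1.60 ± 0.38, adjusted p = 0.0032). Dendritic-like cells held 39.4 to 94.0 CPM, also below macrophage-like cells (−2.05 ± 0.29, adjusted p = 0.00024). Sirpa in endothelial-like cells, at 2.29 to 6.86 CPM, did not separate from SyS-like cells (−0.32 ± 0.47, adjusted p = 0.59).

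Its ligand Cd47 was present in every class, and per UMI SyS-like cells were among the lowest. They held it at 163, 132, 128, 140 and 138 CPM in the order above. Macrophage-like cells held 227, 237, 230, 300 and 232 CPM, all above the SyS-like values (1.35 ± 0.14, edgeR adjusted p = 1.0e-05). This order did not hold per cell. The 27684 SyS-like cells held 50553 Cd47 UMIs and the 3078 macrophage-like cells 4314. At median depths of 9320.5 and 5291 UMIs, 63.3% and 65.8% of these cells had a Cd47 UMI. Endothelial-like cells stood at 229 to 293 CPM, T/NK-like cells at 266 to 563 CPM and dendritic-like cells at 512 to 578 CPM. Endothelial-like and macrophage-like cells did not separate (−0.17 ± 0.11, adjusted p = 0.20), nor did stromal and SyS-like cells (0.54 ± 0.26, adjusted p = 0.15). T/NK-like cells were above endothelial-like cells in 4 of 5 tumours (difference of endothelial-like from T/NK-like −0.58 ± 0.18, adjusted p = 0.015) and dendritic-like cells above T/NK-like cells in 3 of 4 (0.57 ± 0.19, adjusted p = 0.031). Fibroblast-like cells of PD+MP stood at 447 CPM and pericyte-like cells at 107 to 166 CPM.

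Cd24a, a small anchored glycoprotein of epithelial and progenitor cells, was held mostly by the tumour cells. SyS-like cells held it at 493, 431, 624, 503 and 344 CPM, and macrophage-like cells at 19.9, 18.6, 28.9, 20.1 and 19.7 CPM. The classes lay far apart in each tumour (−3.93 ± 0.15, edgeR adjusted p = 4.1e-09), and SyS-like cells held 94.8% of all Cd24a UMIs. Endothelial-like cells were lower still (−4.55 ± 0.21 against SyS-like, adjusted p = 2.9e-07). The macrophage-like level was 4.32% of the SyS-like level, while the SyS markers Adgrb3 and Sox2 stood at 1.38% and 3.62% in the same sums, and all 12 SyS markers summed to 122 to 162 CPM there. What part of macrophage Cd24a is SyS RNA was not tested.

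Dendritic-like cells also held Cd24a, at 114 to 247 CPM, below SyS-like cells in 4 of 4 tumours (−0.88 ± 0.24, adjusted p = 0.0042, edgeR), while Adgrb3 stood at 2.42% of its SyS-like level in them. Neutrophil-like cells, at 252 to 544 CPM, did not separate from SyS-like cells (−0.25 ± 0.32, adjusted p = 0.73), and Adgrb3 stood there at 52.5% of its SyS-like level. In T/NK-like cells Cd24a was at 226 CPM in MP, where 1 cell held 36 of the 61 UMIs, and at 31.7 to 55.8 CPM in the other 4 tumours. Of thinned SyS-like cells, 29.1% to 35.2% by tumour had a Cd47 UMI and 59.1% to 77.8% had a Cd24a UMI. Between 71.6% and 84.1% had at least 1 of these UMIs. The share with both, 19.8% to 24.5%, was close to the 19.1% to 24.7% that independent detection gives.

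Per UMI, levels of the PD-1 receptor and of both its ligands in T/NK-like cells lay above those in SyS-like cells in 5 of 5 tumours. Pdcd1, the receptor carried by activated T cells, was read in T/NK-like cells at 66.9, 69.0, 14.8, 121 and 144 CPM, on 4 to 31 UMIs per tumour. Over all SyS-like cells there were 5 Pdcd1 UMIs, a pooled level of 0.0138 CPM against 80.0 CPM in T/NK-like cells. Macrophage-like, endothelial-like and stromal cells held 0. A floor of 3 UMIs over each class puts T/NK-like cells at least 480-fold above macrophage-like cells. Pdcd1 UMIs were found in 17.8% of T/NK-like cells (12.2% after thinning, with 211 shallower cells left out) and in 0.018% of SyS-like cells, at median depths of 2455.5 and 9320.5 UMIs, so T/NK-like cells without a UMI cannot be read as lacking it.

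The T/NK-like sums also held markers of other classes. The 8 dendritic markers summed to 1107, 88.8, 378, 132 and 749 CPM in them, against 777 to 1165 CPM in dendritic-like cells, with Fscn1 at 375 and 344 CPM and Ccr7 at 321 and 321 CPM in BP replicate 1 and PD+MP. Ccl22 reached 335 CPM in BP replicate 1. The other dendritic markers were low in T/NK-like sums. Xcr1, Clec9a, Cd209a and Zbtb46 stood at no more than 19.7, 4.46, 5.28 and 62.5 CPM there. In dendritic-like cells they stood at 134, 56.9, 141 and 108 CPM or more. Siglech was at 0 in 5 of 5 tumours, but at only 3.99 to 14.6 CPM in dendritic-like cells. The 10 macrophage markers summed to 228 to 1874 CPM, highest in BP replicate 2. The ligand levels of T/NK-like cells below are read beside these values, and the part of other cells in them was not tested.

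Cd274, the more widely expressed ligand, was lower in SyS-like cells than in the immune classes tested. In T/NK-like cells it was at 116, 29.6, 85.1, 89.7 and 149 CPM in the order above, and in SyS-like cells at 9.09, 2.37, 4.44, 7.89 and 2.21 CPM. The groups did not overlap (4.46 ± 0.37, edgeR adjusted p = 6.2e-22). Dendritic-like cells, at 49.5 to 140 CPM, did not separate from T/NK-like cells (−0.12 ± 0.24, adjusted p = 0.74). Macrophage-like cells came below both, at 20.9, 11.7, 16.1, 34.6 and 41.2 CPM. They were above SyS-like cells in 5 of 5 tumours (2.86 ± 0.37, adjusted p = 4.8e-05) and below dendritic-like cells in 4 of 4 (dendritic-like minus macrophage-like 1.84 ± 0.27, adjusted p = 0.00030). Endothelial-like cells followed, below macrophage-like cells in 4 of 5 tumours (−0.88 ± 0.25, adjusted p = 0.0094, edgeR) and above SyS-like cells in 4 of 5 (1.79 ± 0.37, adjusted p = 0.0030). Mast-like cells, with sums in 2 tumours only and no test, stood at 148 and 192 CPM. Stromal and SyS-like cells did not separate (0.24 ± 0.43, adjusted p = 0.72).

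Pdcd1lg2, the ligand mostly found on antigen-presenting cells, was scarce. T/NK-like cells held it at 35.7, 29.6, 44.4, 73.9 and 65.2 CPM, on 3 to 14 UMIs each. SyS-like cells held 0.53, 0.32, 0.30, 0.68 and 0.028 CPM, so that the groups did not overlap. Dendritic-like cells, at 9.89 to 23.4 CPM, were below T/NK-like cells in 4 of 4 tumours (−1.71 ± 0.40, edgeR adjusted p = 0.0059). Macrophage-like cells held 0.43 to 7.49 CPM, and 16 of their 32 UMIs came from MP+BP. The endothelial-like call (1.54 ± 0.54, adjusted p = 0.037) was lost in 8 of 16 alternatives, and stromal cells held 0 UMIs. Despite the low level, SyS-like cells held 51.7% of all Cd274 and 36.5% of all Pdcd1lg2 UMIs.

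The 2 ligand genes are neighbours on mouse chromosome 19 (GRCm38), Cd274 at chr19:29367455-29388095 and Pdcd1lg2 at chr19:29410919-29471161, both on the plus strand. Each has a gene on the other strand within its span. The 250 bases before each start, from RefSeq (GRCm38.p6), are shown because both genes had more CPM in T/NK-like and dendritic-like than in SyS-like cells, and that of Csf1 because it held the only motif match. Of the 10 genes, 6 had a promoter in the table used. Each was searched on both strands for TTCNNNGAA (the interferon-γ GAS element), for GAAA, any 2 bases and GAAA (the core of the interferon response element), and for GGGA, any 2 bases and TTCC (a form of the NF-kB site), which were found in 7.02%, 2.98% and 1.21% of 32851 mouse promoters. The ligand promoters held no match, and that of Csf1 held 1 NF-kB match, shown in capitals, 154 bases before the start.
Cd274 (chr19:29367188-29367437, plus strand): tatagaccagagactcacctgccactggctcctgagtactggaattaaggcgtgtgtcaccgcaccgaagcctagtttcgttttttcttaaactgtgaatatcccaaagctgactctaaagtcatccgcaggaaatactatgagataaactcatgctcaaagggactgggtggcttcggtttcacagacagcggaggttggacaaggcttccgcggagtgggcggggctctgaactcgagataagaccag
Pdcd1lg2 (chr19:29410669-29410918, plus strand): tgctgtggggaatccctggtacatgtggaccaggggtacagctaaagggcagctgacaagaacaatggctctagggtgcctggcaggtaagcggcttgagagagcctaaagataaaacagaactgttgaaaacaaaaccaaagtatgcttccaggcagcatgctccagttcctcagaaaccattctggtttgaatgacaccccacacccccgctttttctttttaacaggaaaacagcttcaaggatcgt
Csf1 (chr3:107760470-107760719, minus strand): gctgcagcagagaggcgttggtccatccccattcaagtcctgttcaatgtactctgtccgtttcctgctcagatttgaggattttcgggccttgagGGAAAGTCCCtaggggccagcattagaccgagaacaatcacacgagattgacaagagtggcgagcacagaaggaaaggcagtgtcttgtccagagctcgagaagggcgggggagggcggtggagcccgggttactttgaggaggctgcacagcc

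Cd276, a B7 family protein studied as a target on solid tumours, was higher per UMI in endothelial-like than in SyS-like cells. Endothelial-like cells held it at 61.0, 55.6, 71.6, 53.0 and 78.9 CPM. SyS-like cells held 16.7, 13.9, 28.4, 27.4 and 12.3 CPM, and the groups did not overlap (1.99 ± 0.21, edgeR adjusted p = 4.6e-05). Macrophage-like cells, at 17.3 to 31.9 CPM, were below endothelial-like cells in 5 of 5 tumours (endothelial-like minus macrophage-like 1.18 ± 0.15, adjusted p = 3.1e-05). They were above SyS-like cells in 4 of 5 (0.84 ± 0.16, adjusted p = 0.00093), a call that was lost without TMM scaling (0.29, adjusted p = 0.14).

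T/NK-like cells held 5 Cd276 UMIs in all and dendritic-like cells 1, and the gene passed the filter on low counts there only through SyS-like sums, so no test is given. Stromal cells did not separate from SyS-like cells (−0.56 ± 0.47, edgeR adjusted p = 0.41), but pericyte-like cells alone were lower (−1.30, adjusted p = 0.0044), with fibroblast-like cells of PD+MP at 31.8 CPM. SyS-like cells still held 76.1% of all Cd276 UMIs and endothelial-like cells 12.1%. After thinning, 15.2% of endothelial-like, 5.37% of SyS-like and 0% of dendritic-like cells had a Cd276 UMI, against 26.4%, 19.4% and 0.38% before.

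Other genes of the same pathways were counted in lists, beside the share of background genes called. Background genes are the tested genes that took no part in the clustering. Of 12 genes for myeloid growth factors and receptors, 10 were tested between macrophage-like and SyS-like cells. Of these 3 were higher and 5 lower (21.9% and 38.7% of background genes). The median log2 difference was −1.18 against −0.29 over all genes. Csf2ra, a chain of the GM-CSF receptor, was higher by 3.39 ± 0.28 (edgeR, adjusted p = 1.3e-06), and Sdc1, a cell surface proteoglycan, was lower (−3.25 ± 0.29, adjusted p = 2.1e-06). Csf2rb, the shared receptor chain for GM-CSF and interleukins, stood at 68.3 CPM or more in macrophage-like and at most 0.86 CPM in SyS-like cells. Flt3, the receptor that sustains dendritic cells, stood at 126 CPM or more in dendritic-like and at most 0.74 CPM in SyS-like cells. Csf2rb and Flt3 passed the filter on low counts only through the class where they are high, so no test of them is given. Csf3r, counted among the higher genes of macrophage-like cells, also entered only through macrophage-like sums. Kit, the stem cell factor receptor, was higher in dendritic-like cells (3.25 ± 0.26, edgeR adjusted p = 8.3e-12) and lower in stromal cells (−2.11 ± 0.40, adjusted p = 0.0052) than in SyS-like cells.

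Of 16 phagocytosis genes, 15 were tested in macrophage-like cells, with 11 higher and 3 lower (21.9% and 38.7% of background genes). The median was 2.30 against −0.29 over all genes. Lilrb4a and Slamf7 passed the filter on low counts only through macrophage-like sums, and 1 gene only through SyS-like sums. Axl, a receptor for dying cells, was higher by 6.35 ± 0.23 (edgeR, adjusted p = 2.4e-09), and Mfge8, which bridges dying cells to phagocytes, was lower (−1.57 ± 0.23, adjusted p = 0.00012). In stromal cells 5 of 14 were higher and 1 lower (8.87% and 16.1% of background genes), and Mfge8 was higher there (3.87 ± 0.27, edgeR adjusted p = 3.0e-05). In endothelial-like cells 3 of 14 were higher and 4 lower, where 50.3% of background genes passed, with a median of 0.045 against −0.14. Of the 14, 2 passed the filter on low counts only through SyS-like sums. In T/NK-like cells 3 of 15 were higher and 6 lower, where 30.8% of background genes passed, with a median of −1.74 against −0.53. Of the 15, 9 passed the filter on low counts only through SyS-like sums and 2, Lilrb4a and Slamf7, only through T/NK-like sums. In dendritic-like cells 6 of 16 were higher and 5 lower (10.9% and 25.5% of background genes). Of the 16, 3 (Siglecg, Lilrb4a and Slamf7) passed the filter only through dendritic-like sums and 3 only through SyS-like sums.

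Of 21 T cell co-signalling genes, 16 were tested in macrophage-like cells, with 11 higher and 2 lower, where 60.6% of background genes passed. The median was 3.98 against −0.29 over all genes. Of the 16, Cd28, Tnfrsf14 and Cd200r1 passed the filter only through macrophage-like sums, and 2 genes only through SyS-like sums. Cd86, a ligand that activates T cells, was higher by 10.23 ± 0.48 (edgeR, adjusted p = 1.5e-08), and Nectin2, a ligand of TIGIT, was lower (−2.73 ± 0.21, adjusted p = 7.3e-07). In T/NK-like cells 15 of 18 were higher and 1 lower (9.28% and 21.5% of background genes). Of the 18, 5 (Cd28, Icos, Cd96, Cd226 and Btla) passed the filter only through T/NK-like sums and 6 only through SyS-like sums. In endothelial-like cells 8 of 14 were higher and 2 lower (19.5% and 30.8% of background genes). Among the higher ones was Cd200, which restrains myeloid cells (6.85 ± 0.41, edgeR adjusted p = 1.3e-06). Of the 14, Btla passed the filter only through endothelial-like sums and 3 genes only through SyS-like sums.

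Of 10 genes for the induction and stability of PD-L1, 7 of 10 tested were higher and 2 lower in T/NK-like cells (9.28% and 21.5% of background genes). The median was 1.68 against −0.53 over all genes. Ifng, the cytokine that induces Cd274, stood at 17.8 CPM or more there and at most 0.014 CPM in SyS-like cells, and since it passed the filter only through T/NK-like sums, no test is given. Macrophage-like cells had 5 of 9 higher and 2 lower (21.9% and 38.7% of background genes). Ifngr1, a chain of the interferon-γ receptor, was higher (4.11 ± 0.28, edgeR adjusted p = 2.8e-07), as was Cmtm6, which keeps PD-L1 at the cell surface (2.11 ± 0.16, adjusted p = 7.3e-07). Irf1, which acts downstream of interferon, was lower (−1.74 ± 0.25, adjusted p = 0.00012), and so was Socs1 (−1.61 ± 0.22, adjusted p = 7.6e-05).

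No member passed between tumours with and without BP in the label. In SyS-like cells 0 of 9 tested members passed (0% of the tested genes that took no part in the clustering), and 0 had an unadjusted p under 0.05. DESeq2 also called 0 members, although it called 460 genes in all. Csf1 did not overlap, with 6.48 to 7.24 CPM in the 3 tumours with BP and 8.19 and 8.62 CPM in the 2 without (−0.36 ± 0.25, edgeR adjusted p = 0.66). Pdcd1lg2 did not overlap in the other direction (1.53 ± 0.93, adjusted p = 0.62). Such a split was seen in 14.3% of background genes on the higher side and 10.3% on the lower side.

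In macrophage-like cells 0 of 7 tested members passed (0% of genes). Sirpa was at 207 to 277 CPM with BP and at 321 and 432 CPM without (−0.56 ± 0.19, unadjusted p = 0.017, edgeR adjusted p = 0.40). Of background genes, 16.6% were split in this direction. The difference between macrophage-like and SyS-like cells was also compared between the labels, and 1 of 18109 genes passed, which was no member. For Cd274 that difference was −1.17 ± 0.64 (adjusted p = 1) and for Il34 1.26 ± 1.21 (adjusted p = 1). Only 3 tumours stood against 2. In simulated data the label comparison in SyS-like cells recovered 0% of log2 changes of 1 and 21.4% of changes of 2. Members that did not pass therefore cannot be read as unchanged. The p-values measure the spread between these 5 tumours only.

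**Figure D4:**
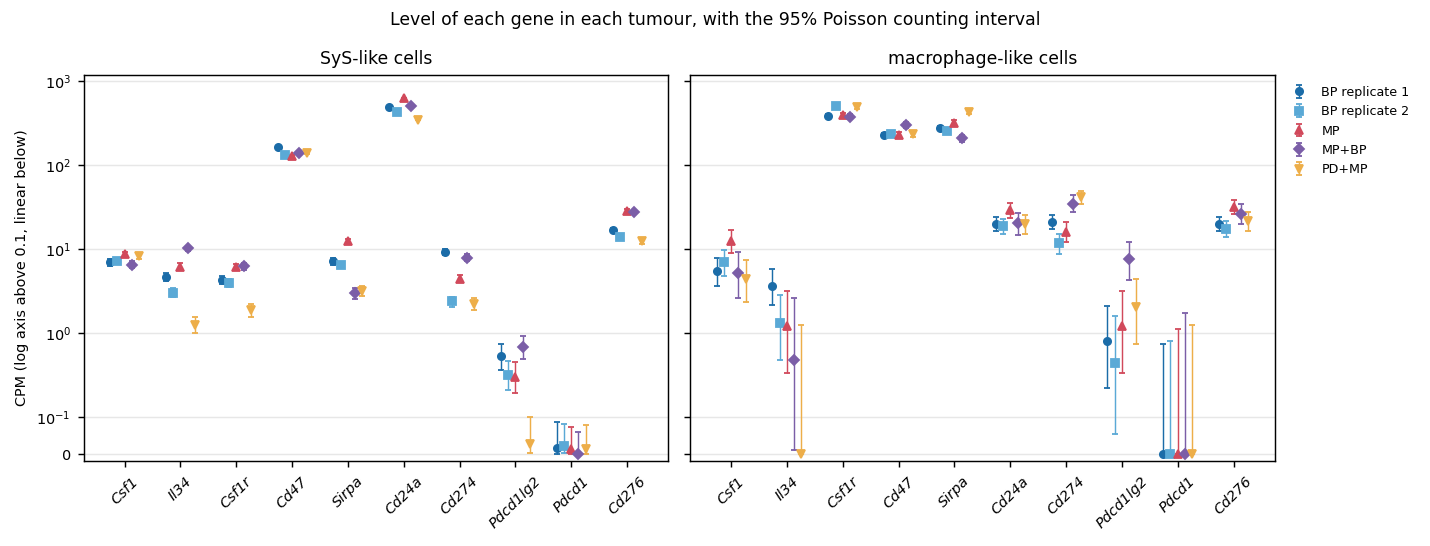
Level of each gene (CPM, log axis above 0.1 and linear below) in SyS-like and macrophage-like cells; each point is a tumour, marked by its label, with its 95% Poisson counting interval. The SyS-like Csf1 values lie between 6.48 and 8.62 CPM, and macrophage-like Sirpa runs from 207 to 432 CPM with both tumours without BP on top.

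The genes whose levels were most alike were sought by Pearson's r over 30 sums of class and tumour among 14443 genes, as a description. Il34 was most like Pdgfrb, the growth factor receptor of pericytes (r = 0.97), and Csf1r most like Ctsz (r = 0.95). Pdcd1 was most like Olfr60 and Cd3e, a chain of the T cell receptor complex (r = 0.98 each). Cd274 was most like Samsn1 (r = 0.94), Sirpa most like Ftl1 (r = 0.94), Pdcd1lg2 most like Grap2 (r = 0.92) and Cd24a most like Slc30a3 (r = 0.88). Cd47 (Rab21, r = 0.86), Csf1 (Samd13, r = 0.84) and Cd276 (Hpn, r = 0.83) had no gene as near. Sums of 1 tumour share a library, and the values carry no test.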

How the data were processed

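Filtered matrices of UMI counts from 5 tumours were used as deposited by the authors, who made them with Cell Ranger 7.2.0 per the submitters' processing notes (mm10, GENCODE M21). Cells with fewer than 750 genes or over 25% mitochondrial UMIs were removed, as were doublets ranked by Scrublet in scanpy 1.11.5, leaving 39559 cells. The matrices held 89996321 to 118649103 UMIs each. Clusters (3000 features without the members or their pathway genes, 30 principal components, 20 neighbours, Leiden resolution 1, leidenalg 0.10.2) were named from fixed markers. None was named monocyte-like, so that comparison was not run. Counts were summed per class and tumour (at least 20 cells, at least 3 tumours) and compared by edgeR 4.0.16 in R 4.3.3 (quasi-likelihood, TMM, filterByExpr, 2-sided, Benjamini-Hochberg adjustment at 0.05), blocked by tumour because each pair of sums comes from 1 tumour. DESeq2 1.42.0 was an alternative. The scripts were tested on simulated data with log2 changes of 1 and 2. Between macrophage-like and SyS-like sums 50% and 84.1% of these were recovered, and for T/NK-like sums 11.1% and 50.5%. Between labels in SyS-like cells 0% and 21.4% were recovered. Of the calls, 8.45% were false for macrophage-like, 7.46% for T/NK-like and 0% for the label comparison. Intervals and floors cover counting error only. Named genes were the 10 members, up to 3 called genes per list and direction, and the most alike genes. The members and lists were chosen with earlier results of these data known.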

Additional observations from a re-analysis of the deposited data

How the results depend on the processing

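Members called under the alternatives stayed within 1.5 times the reported count with these exceptions. With SyS-like sums thinned to the depth of the other class, 2 members were called in T/NK-like, 2 in neutrophil-like and 5 in dendritic-like cells, where fewer members passed the filter on low counts. Leaving out each tumour gave 7 to 8 calls for macrophage-like, 6 to 7 for endothelial-like, 4 to 5 for stromal, 5 to 7 for T/NK-like, 3 to 6 for neutrophil-like (3 without BP replicate 1) and 7 to 8 for dendritic-like cells, and 0 for both label comparisons. Without the tumour as a replicate block the counts were 7, 6, 4, 6, 5 and 8 for macrophage-like, endothelial-like, stromal, T/NK-like, neutrophil-like and dendritic-like cells.

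Directions turned only for differences that had not passed, and the cause was not tested. Csf1r in endothelial-like cells went to −0.26 without TMM, −0.053 with DESeq2, −0.089 without a filter, −0.060 with thinned sums, −0.030 with doublets kept, −0.050 with the automatic doublet threshold, −0.093 with at least 1500 genes, −0.044 at resolution 2 and −0.048 with names from markers alone, a setting chosen after seeing the data. Without TMM, Csf1 in macrophage-like cells went to −0.19 and Cd274 in stromal cells to −0.0086, or −0.39 with pericyte-like cells alone. With doublets kept, Il34 in neutrophil-like cells went to −0.015. Between labels in macrophage-like cells, Csf1r went to 0.063 with the automatic doublet threshold and 0.15 with names from markers alone, Cd24a to 0.18 with doublets kept, and Cd47 to −0.12 with names from markers alone. Leaving out each tumour turned more of them. Against SyS-like cells, Csf1r ran from −0.24 to 0.14 and Sirpa from −0.76 to 0.20 in endothelial-like cells, and Cd274 from −0.033 to 0.59 in stromal cells. Between labels in SyS-like cells, Il34 ran from −0.11 to 2.12, Csf1r from −0.39 to 1.25, Cd47 from −0.035 to 0.15, Sirpa from −1.20 to 0.70, Cd24a from −0.42 to 0.35 and Cd276 from −0.60 to 0.53. In macrophage-like cells, Csf1 ran from −1.10 to 0.55, Csf1r from −0.17 to 0.082, Cd24a from −0.60 to 0.092, Cd274 from −0.83 to 0.39 and Cd276 from −0.65 to 0.065. Shallow classes limit what could be seen, T/NK-like cells with 2455.5 and neutrophil-like cells with 1887 UMIs at the median.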

Other observations

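Macrophage-like cells fell into 2 clusters. The larger, of 1860 cells, held Csf1r at 450 CPM, Sirpa at 340, Csf1 at 9.16 and Cd274 at 19.1 CPM, and the smaller, of 1218 cells, held them at 406, 213, 2.34 and 29.9 CPM. A cluster of 639 cells that stayed unnamed, with Spp1, Mmp12 and Arg1 among its leading genes and 62.8% of its cells from PD+MP, held Csf1r at 208, Sirpa at 284, Cd47 at 384 and Cd274 at 61.1 CPM. Another unnamed cluster, of 157 cells, had the highest Csf1r of the clusters, at 564 CPM, with Cd274 at 10.2 CPM. These are pooled levels with no test.

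Among the 16 SyS-like clusters Cd24a ranged from 205 to 648 CPM, Cd47 from 74.2 to 169 CPM, Il34 from 0.32 to 16.6 CPM, Csf1 from 4.30 to 15.2 CPM and Cd276 from 7.43 to 33.1 CPM. Cd274 ranged from 1.54 to 22.3 CPM, highest in a cluster of 552 cells with the epithelial genes Cdh1, Cldn7 and Rab25 among its leading genes and 79.0% of its cells from BP replicate 1, the tumour with the highest SyS-like Cd274 level. Mast-like cells, which formed sums in 2 tumours, held Csf1 at 97.1, Cd274 at 182 and Pdcd1lg2 at 31.5 CPM.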
